A study of Mus musculus with 10 samples.

Results

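Immunoglobulin genes encode antibodies, and their transcripts were followed across 10 bulk RNA sequencing libraries of the mouse medial prefrontal cortex. The members were the rows of the deposited gene table whose biotype marks an immunoglobulin gene segment and not a pseudogene, 267 of 78317 genes listed. By symbol 142 belonged to the heavy chain locus, 106 to the kappa light chain locus and 12 to the lambda light chain locus, and 7 predicted genes carried no locus in their names. By biotype 221 were variable (V) segments, 13 constant segments, 19 diversity (D) segments and 14 joining (J) segments. The study overexpressed the microRNA miR-130a-3p in this frontal region with an adeno-associated virus (AAV) and measured the transcriptome that followed. The control group, libraries 3, 4, 5, 7 and 9, came from mice injected with a control AAV. The miR-130a group, libraries 13, 14, 15, 17 and 18, came from mice injected with the AAV that overexpressed miR-130a-3p. All 10 libraries are labelled wild type (WT) and mixed cell types, and no strain, age, AAV serotype, promoter or interval after injection is named in the labels used here. The tissue was a small punch of cortex, and libraries were made from poly(A)-selected RNA with a strand-preserving ligation kit.

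An antibody is built from a pair of heavy chains and a pair of light chains, and each light chain is of the kappa or the lambda kind. In a developing B cell the recombinase made by Rag1 and Rag2 joins 1 V, 1 D and 1 J segment of the heavy locus, and 1 V and 1 J segment of a light chain locus, so that each B cell clone transcribes its own V segments. The constant segment downstream sets the class of the antibody (IgM from Ighm, IgA from Igha, the IgG subclasses from the Ighg genes), and plasma cells, the antibody-secreting descendants of B cells, transcribe these rearranged genes at very high levels. The healthy brain parenchyma holds few such cells, while the meninges around it and their blood sinuses hold more.

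The segments that led the signal differed between libraries, and the germline ends of 7 V segments are shown here. The stretch shown does not always tell 1 V segment from another: Ighv1-50 and Ighv1-55 share that of Ighv1-64 base for base. The sequences are from the GENCODE M21 transcripts on GRCm38, matched by gene identifier, and begin 21 bases before the motif. Capitals mark a match to TANTNNTGN on the coding strand, which covers the tyrosine and cysteine codons at the end of the last framework region; 210 of 221 V segments (95%) hold it in their last 60 bases. The bases after the capitals are the germline start of the third complementarity-determining region, the antigen-contacting loop that is completed by joining to D and J. The heavy chain segments shown led control library 3 (Ighv1-7), led 4 of 5 miR-130a libraries (Ighv3-6), and passed the test of the groups (Ighv1-64).
Ighv1-7: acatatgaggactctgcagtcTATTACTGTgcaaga
Ighv3-6: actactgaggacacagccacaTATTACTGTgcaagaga
Ighv1-64: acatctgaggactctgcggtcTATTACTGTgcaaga
The kappa segments shown led control library 3 (Igkv10-94, with its close relative Igkv10-96), led control library 7 (Igkv4-72), or passed the test (Igkv6-25).
Igkv10-94: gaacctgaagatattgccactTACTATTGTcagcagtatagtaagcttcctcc
Igkv10-96: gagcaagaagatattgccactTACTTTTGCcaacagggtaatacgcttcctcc
Igkv4-72: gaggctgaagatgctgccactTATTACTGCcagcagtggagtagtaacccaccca
Igkv6-25: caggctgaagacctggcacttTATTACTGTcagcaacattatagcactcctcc
The heavy chain segments lie on chromosome 12, the kappa segments on chromosome 6 and the lambda segments on chromosome 16. The mature microRNA that was overexpressed has the following sequence in RefSeq (GRCm38.p6), with its seed, bases 2 to 8, in capitals.
mmu-miR-130a-3p: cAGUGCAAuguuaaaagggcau

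Values are TPM, a relative transcript abundance scaled by transcript length and to the same total in every library, so the read depth behind a value is unknown. Mir130a, which encodes miR-130a-3p, had a value of 0 in each of the 10 libraries, so these data do not show the overexpression. The 10 cortical neuron markers used to check the tissue were present throughout, with summed levels of 3439 to 6212 TPM in controls against 4517 to 5549 TPM under miR-130a, and 0 of 10 passed the test. Control libraries 7 and 9 stood apart: they held the 2 highest summed immunoglobulin levels, and 134 of 167 detected V segments (80.2%) peaked in 1 of them. Results that rest on these libraries are given with and without them. The labels do not say how many mice there were, so p-values measure the spread between libraries.

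Immunoglobulin transcripts made up a small and very uneven part of each library. Summed over all members, the level was 4371, 536 and 1190 TPM in control libraries 3, 4 and 5, and 11388 and 19621 TPM in control libraries 7 and 9. In miR-130a libraries 13, 14, 15, 17 and 18 it was 867, 306, 688, 2322 and 1868 TPM. The groups overlapped: control libraries 4 and 5 lay within the miR-130a range. The share of all TPM ran from 0.0536% to 1.96% in controls and from 0.0306% to 0.232% in miR-130a libraries. The mean was 7421 ± 8064 TPM in controls and 1210 ± 848 TPM under miR-130a (SD, n = 5 each), a 6.13-fold higher control mean. Without control libraries 7 and 9 the control mean was 2032 ± 2051 TPM (SD, n = 3), and the fold was 1.68. In bulk tissue, fewer antibody-producing cells and less immunoglobulin RNA per cell cannot be told apart.

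**Figure D1:**
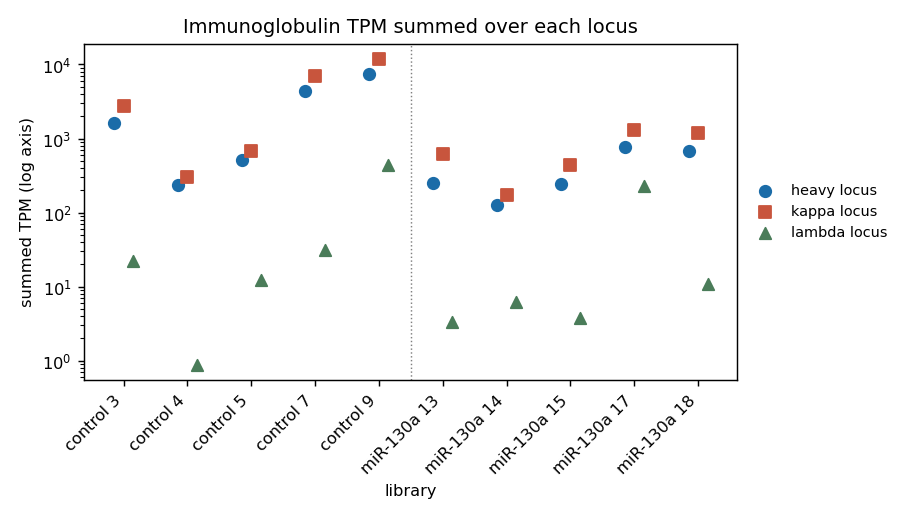
Summed TPM (log axis) of the heavy, kappa and lambda loci in each of the 10 libraries, 1 point per locus and library, controls left of the dotted line. Control libraries 7 and 9 are highest for the heavy and kappa loci, while control libraries 4 and 5 lie among the miR-130a libraries.

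The heavy and kappa loci put the 10 libraries in the same order, from control 9 at the top to miR-130a 14, and the lambda locus carried little. The heavy locus held 2838 ± 3047 TPM in controls and 414 ± 291 TPM under miR-130a, and the kappa locus 4482 ± 4854 and 745 ± 487 TPM (SD, n = 5 each). The lambda locus held 0.88 to 436 TPM in controls and 3.29 to 231 TPM under miR-130a. Its highest libraries were control 9 and miR-130a 17, and without control libraries 7 and 9 its control mean, 11.9 TPM, was below the miR-130a mean of 51.1 TPM. Within the kappa locus the V segments together stood at 2.28 to 3.42 times the level of the constant segment Igkc in every library. Within the heavy locus the ratio of V to constant TPM ran from 0.922 to 2.11.

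Few single segments passed the test of the groups, and the libraries of the control group differed widely. Differences are miR-130a minus control on the log2(TPM + 1) scale, tested with limma over all 15680 genes with a mean of at least 1 TPM and called at an adjusted p under 0.05. Of all genes tested, 1767 (11.3%) were called lower and 343 (2.19%) higher in miR-130a libraries; the split depended on scaling and was 1192 to 862 with median-ratio scaling and 1046 to 1071 with quantile normalization. Of the 144 members that passed the same filter, 3 (2.08%) were called lower and 0 higher, a smaller called share than among all genes; 20 members (13.9%) had an unadjusted p under 0.05, all of them lower, beside 4455 of all genes (28.4%). Ranges that did not overlap between the groups were found for 1774 of all genes tested (11.3%) and for 0 members. The median difference was -1.27 over the members tested and -0.09 over all genes tested, and 132 members (91.7%) had a negative difference beside 63.6% of all genes. By locus the median was -1.27 for heavy, -1.30 for kappa and -0.58 for lambda segments, and by type it was -1.91 for the 10 constant and -1.24 for the 134 V segments tested. A filter on the mean keeps a segment that is high in 1 library alone, and 115 of the 167 V segments detected were highest in control library 9. Passing through 1 high control library favours a negative difference but does not fix its sign. Ighv10-1, above 0 among controls only in library 9 (5.33 TPM), had a difference of 0.40. These medians and counts of negative differences therefore describe the segments that passed.

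Control libraries 7 and 9 stand apart by the immunoglobulin level itself, so leaving them out lowers the control levels by construction. Without them 93 members were tested, 50 had a negative difference, the median was -0.13 beside -0.15 for all genes, and 1 member was called lower beside 15.5% of all genes. The summed level then differed by -0.56 on the log2 scale for all segments, by -0.80 for heavy, by -0.46 for kappa and by 0.66 for lambda segments. Of the controls left, only library 3 (4371 TPM over all segments) lay above every miR-130a library (at most 2322 TPM). Control libraries 4 and 5 lay within the miR-130a range. Without control library 9 alone 109 members were tested with a median of -0.65, and 3 were called lower beside 18.7% of all genes. The count of calls moved from 3 to 8 without control library 4, to 1 without miR-130a library 15 or 17, and to 0 without control library 7, miR-130a library 13 or miR-130a library 14.

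**Figure D2:**
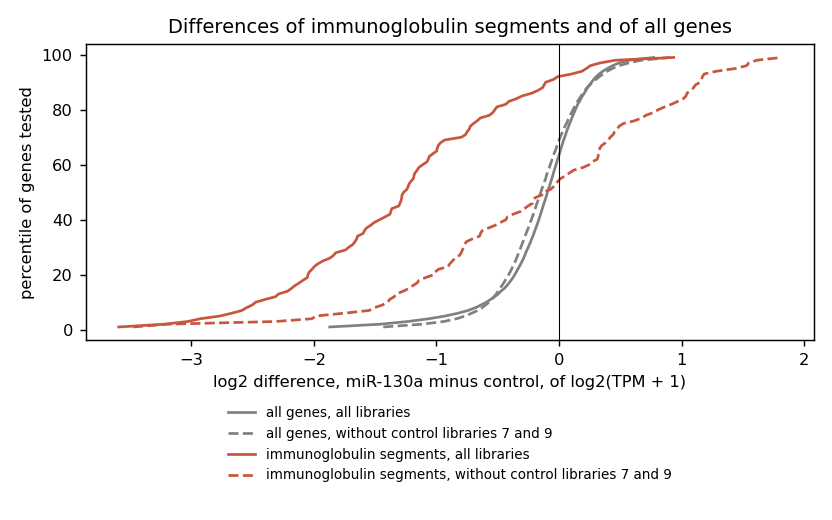
Percentile of genes tested (vertical axis) against the log2 difference, miR-130a minus control (horizontal axis), for immunoglobulin segments and for all genes, with all libraries and without control libraries 7 and 9. The median of the segments is -1.27 with all libraries and -0.13 without those 2, and that of all genes is -0.09 and -0.15.

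Of the heavy chain constant segments, 1 passed the test: Ighm (ENSMUSG00000076617), the constant segment of IgM, the class every B cell makes first. Its level was 272, 70.0, 127, 1123 and 609 TPM in control libraries 3, 4, 5, 7 and 9, and 46.1, 34.4, 68.5, 50 and 76.5 TPM in miR-130a libraries 13, 14, 15, 17 and 18. Only miR-130a library 18 exceeded the lowest control, library 4. Ighm fell by 2.37 on the log2 scale (SE 0.625, adjusted p = 0.0276), with a control mean 7.99-fold above the miR-130a mean. Without control libraries 7 and 9 the difference was -1.33 (adjusted p = 0.0434) and the fold 2.84. The call was lost in 5 of 10 fits that left out 1 library (control 3 or 7, or miR-130a 13, 14 or 17), with an adjusted p of at most 0.07, and with robust variance moderation (0.0693).

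The other classes had lower means in miR-130a libraries, but none passed the test with all libraries. Igha (ENSMUSG00000095079), the constant segment of IgA, the class of mucosal surfaces, stood at 120, 36.4, 57.8, 135 and 1502 TPM in controls 3, 4, 5, 7 and 9, and at 21.5, 15.7, 5.22, 54.8 and 79.2 TPM in miR-130a libraries 13, 14, 15, 17 and 18. Control library 9 stood alone, far above the next library, and the difference of -2.47 did not pass the test (SE 0.936, adjusted p = 0.106; -1.35, adjusted p = 0.24, without control libraries 7 and 9). Ighg1 (ENSMUSG00000076614), of the IgG1 subclass, ran from 0.33 to 38.8 TPM in controls and from 0 to 2.84 TPM under miR-130a (log2 difference -2.55, adjusted p = 0.103). It passed without control library 4 (adjusted p = 0.0436) or 5 (adjusted p = 0.0333) but not without any other single library (adjusted p of 0.0979 to 0.22), and the difference was -1.22 (adjusted p = 0.364) without control libraries 7 and 9. Ighg3 (ENSMUSG00000076615) ran from 0.32 to 49.4 TPM and from 0 to 5.46 TPM (adjusted p = 0.137). It passed without control library 3 (adjusted p = 0.0424) but not without any other single library (adjusted p of 0.0916 to 0.262), and the difference was -1.14 (adjusted p = 0.38) without control libraries 7 and 9. Ighg2b (ENSMUSG00000076613) ran from 2.48 to 156 TPM and from 0.63 to 49.0 TPM (adjusted p = 0.341; 0.748 without control libraries 7 and 9).

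Ighg2c (ENSMUSG00000076612), the constant segment of the IgG2c subclass, differed least between the groups among the constant segments tested. Its level was 28.7, 7.68, 32.7, 43.2 and 441 TPM in controls 3, 4, 5, 7 and 9, and 45.8, 12.6, 32.2, 167 and 42.0 TPM in miR-130a libraries 13, 14, 15, 17 and 18. No miR-130a library lay below the lowest control. The log2 difference was -0.03 (adjusted p = 0.987) with all libraries and 1.08 (adjusted p = 0.327) without control libraries 7 and 9. Ighd, the constant segment of IgD of naive B cells, stayed between 0.29 and 0.98 TPM in all 10 libraries and fell under the filter. Ighe, of IgE, was listed at 0 throughout.

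As shares of heavy constant TPM, the class makeup also varied from library to library. Ighm led in 7 libraries, Igha in control library 9 (53.7%) and miR-130a library 18 (31.9%), and Ighg2c in miR-130a library 17 (54.7%). Ighm took 21.8% to 79.4% in control and 16.4% to 63.4% in miR-130a libraries, and Igha 9.51% to 53.7% and 4.84% to 31.9%. The 4 IgG segments together took 10.7% to 31.7% in control and 23.0% to 65.4% in miR-130a libraries. The share of Ighg2c was 4.98%, 6.39%, 13.6%, 3.05% and 15.8% in controls 3, 4, 5, 7 and 9, and 39.2%, 19.2%, 29.8%, 54.7% and 16.9% in miR-130a libraries 13, 14, 15, 17 and 18. These shares of Ighg2c did not overlap between the groups; this share was picked out after its values were seen, and carries no test. Control 9 and miR-130a 18 were the nearest libraries of the groups, at 15.8% and 16.9%, and a share rises when another class falls.

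**Figure D3:**
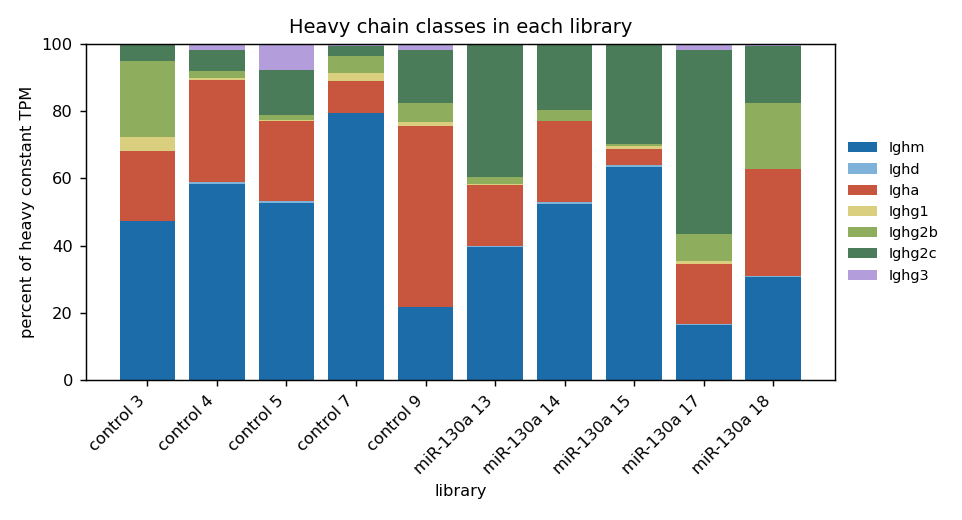
Share of heavy constant TPM (percent) taken by each class in each of the 10 libraries, 1 stacked bar per library. Ighg2c takes 3.05% to 15.8% in control and 16.9% to 54.7% in miR-130a libraries, while Ighm leads in 7 libraries.

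Among light chains, kappa made up most of the constant TPM, the usual state in mice. Igkc (ENSMUSG00000076609), the single kappa constant segment, stood at 723, 87.6, 184, 1812 and 3114 TPM in controls 3, 4, 5, 7 and 9, and at 188, 39.3, 123, 360 and 350 TPM in miR-130a libraries 13, 14, 15, 17 and 18. The ranges overlapped and the difference did not pass (adjusted p = 0.23), and without control libraries 7 and 9 it was -0.47 (adjusted p = 0.727). The lambda constant segments took 0% to 4.16% of light chain constant TPM in controls and 0.761% to 15.5% under miR-130a, with the highest share in miR-130a library 17. Iglc1, Iglc2 and Iglc3 did not pass the test (adjusted p = 0.388, 0.891 and 0.67), and Iglc4 was listed at 0 throughout.

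Of the 134 V segments tested, 2 were called lower. Igkv6-25 (ENSMUSG00000094930), whose germline end is shown above, stood at 102, 6.47, 151, 13.8 and 38.1 TPM in controls 3, 4, 5, 7 and 9, and at 0, 0.93, 0, 2.36 and 36.2 TPM in miR-130a libraries 13, 14, 15, 17 and 18. The 4 lowest miR-130a libraries lay below every control, and miR-130a library 18 above controls 4 and 7. Igkv6-25 fell by 3.62 on the log2 scale (SE 1.05, adjusted p = 0.0417). Ighv1-64 (ENSMUSG00000094088) stood at 1.69, 18.5, 4.25, 11.5 and 193 TPM in the controls, and at 0, 2.22, 0, 2.52 and 0 TPM in the miR-130a libraries. It fell by 3.17 (SE 0.947, adjusted p = 0.0468), with miR-130a libraries 14 and 17 above control library 3. Each of these 2 calls was lost in 7 of 10 fits that left out 1 library, with an adjusted p of at most 0.103 for Igkv6-25 and 0.106 for Ighv1-64. Without control libraries 7 and 9 the differences were -4.03 (adjusted p = 0.0565) and -2 (adjusted p = 0.0682). For Igkv6-25 the call held without control 4, control 9 or miR-130a 18, and for Ighv1-64 without control 3, control 5 or control 9.

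The V segments listed above 0 differed between libraries, although most of those detected were above 0 in more than 1 library. Members above 0 TPM numbered 83, 67, 89, 126 and 163 in controls 3, 4, 5, 7 and 9, and 58, 59, 48, 114 and 82 in miR-130a libraries 13, 14, 15, 17 and 18 (105.6 ± 38.7 and 72.2 ± 26.5; SD, n = 5 each). Control libraries 9 and 7, with the most immunoglobulin RNA, listed the most segments, and depth, which limits detection, is unknown. Without control libraries 7 and 9 the control mean was 79.7. Of the 167 V segments detected, 10 were above 0 in all 10 libraries and 22 in 1 library only, 14 of these in control library 9. A further count shows the same unevenness: 137 V segments (82.0%) had more TPM in 1 library than in the other 9 together. Control library 9 held the highest level of 115 V segments (68.9%), control library 7 of 19 (11.4%), and the 5 miR-130a libraries together of 23 (13.8%). Of the V segments, 34 were above 0 in controls only and 3 in miR-130a libraries only; 14 of the 34 were above 0 in control library 9 alone, and 2 were at 0 in both control 7 and control 9.

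**Figure D4:**
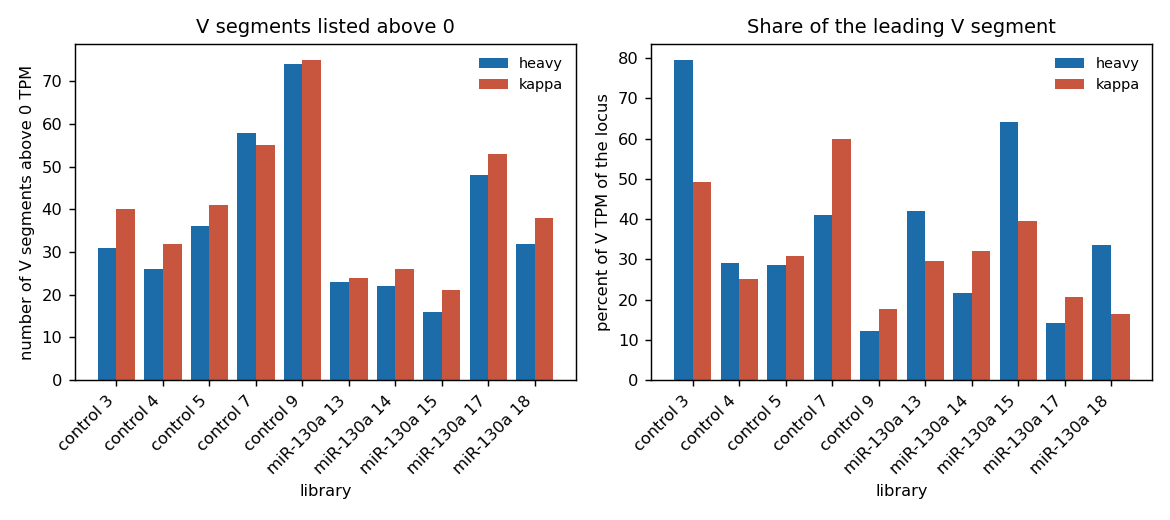
Left, number of heavy and kappa V segments above 0 TPM in each library; right, percent of the V TPM of the locus taken by its leading V segment. Control library 9 lists the most V segments and has the lowest leading heavy share, 12.2%, while control library 3 has the highest, 79.5%.

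In several libraries 1 V segment carried much of the locus. In control library 3, Ighv1-7 stood at 836 TPM, 79.5% of heavy V TPM, and at 0 to 41.7 TPM in the other libraries. In the same library Igkv10-94 stood at 986 TPM (49.3% of kappa V TPM) and Igkv10-96 at 574 TPM (28.8%). In control library 7, Ighv1-34 stood at 1226 TPM (41.1%) and Igkv4-72 at 3083 TPM (59.9%), while Igkv4-72 stood at 184 TPM in control 9 and at 11.6 TPM or less in the other 8 libraries. In control library 9, the richest of all, the leading segments Ighv1-19 and Igkv3-2 took only 12.2% and 17.6%.

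The effective number of V segments, the inverse of the summed squared shares, puts this evenness on 1 scale. It was 22.4 for heavy and 17.2 for kappa V segments in control library 9, the highest of all libraries at both loci, and 1.57 and 3.01 in control library 3. In miR-130a libraries it ran from 2.27 to 15.3 for heavy and from 3.32 to 11.5 for kappa. The group means were 8.57 ± 8.09 and 8.19 ± 5.24 for heavy and 7.64 ± 5.87 and 7.13 ± 3.33 for kappa V segments (SD, n = 5 each), and the spread within each group exceeded the difference between them. Without control library 9 the control means were 5.11 ± 2.76 for heavy and 5.25 ± 2.80 for kappa V segments (SD, n = 4). The leading heavy share was 38.1% ± 25.3 in control and 35.1% ± 19.4 in miR-130a libraries, and the leading kappa share 36.6% ± 17.5 and 27.6% ± 9.28.

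A different kappa V segment led in each of the 10 libraries: besides those named, Igkv8-24 in control 4 (25.1%), Igkv6-25 in control 5 (30.9%), and Igkv6-15, Igkv6-23, Igkv5-43, Igkv12-44 and Igkv9-120 in miR-130a libraries 13, 14, 15, 17 and 18 (16.3% to 39.6%). Heavy V segments were less varied at the top: the 5 controls had 5 different leaders, among them Ighv1-50 in control 4 (29.2%) and Ighv1-55 in control 5 (28.6%), and Ighv3-6 led in 4 of 5 miR-130a libraries, with 41.9%, 21.6%, 64.1% and 14.3% of heavy V TPM in libraries 13, 14, 15 and 17. Ighv1-9 led in miR-130a library 18 (33.6%). The level of Ighv3-6 itself was 27.6, 9.75, 49.7, 49.7 and 246 TPM in controls 3, 4, 5, 7 and 9, and 54.7, 13.1, 87.5, 67.5 and 34.0 TPM in miR-130a libraries 13, 14, 15, 17 and 18. Its difference was -0.05 (SE 0.723, adjusted p = 0.976) with all libraries and 0.82 (adjusted p = 0.397) without control libraries 7 and 9. Its levels in miR-130a libraries 13, 15 and 17 lay above every control but library 9. The largest positive differences belonged to Ighv1-58 (1.19, adjusted p = 0.479) and Igkv12-98 (1.01, adjusted p = 0.589), which did not pass and were picked out after their values were seen.

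**Figure D5:**
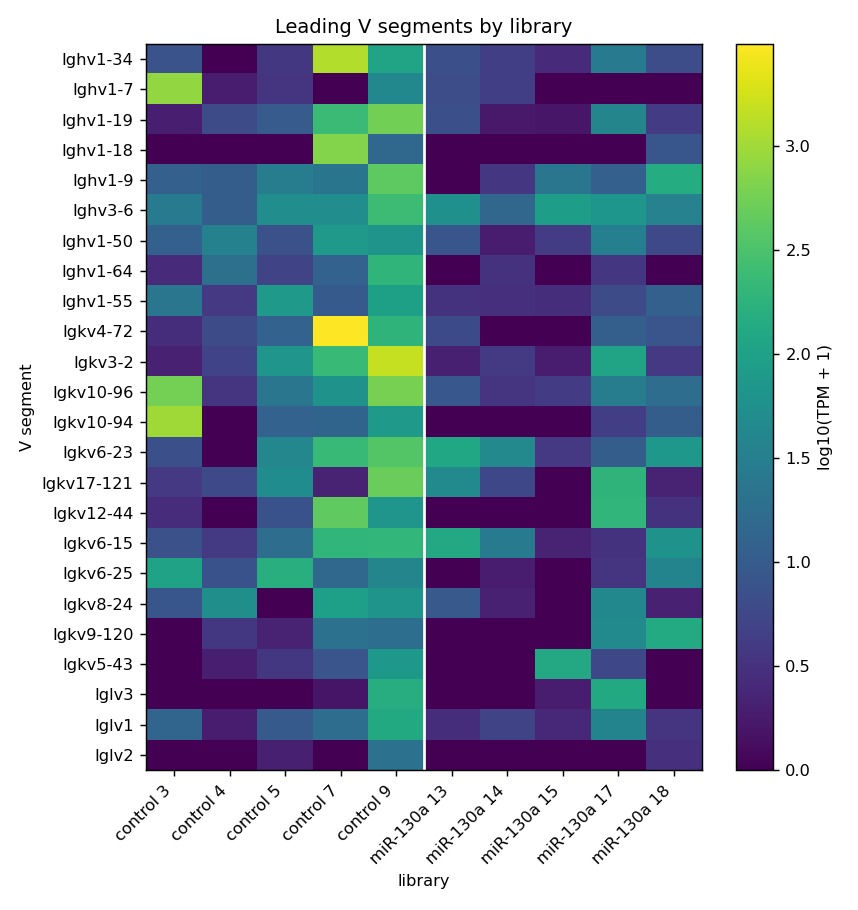
Level of the leading heavy, kappa and lambda V segments, as log10(TPM + 1), in each library, 1 row per segment and 1 column per library, controls left of the white line. Single bright cells such as Igkv4-72 in control library 7 (3083 TPM) and Ighv1-7 in control library 3 (836 TPM) stand beside rows such as Ighv3-6, which is present in all 10 libraries.

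The lambda V segments were few and were high in 2 libraries. Iglv1 was above 0 in all 10 libraries and reached 132 TPM in control library 9 and 36.3 TPM in library 17 of the miR-130a group, with 0.88 to 16.4 TPM elsewhere. Iglv3 reached 149 TPM in control library 9 and 129 TPM in library 17, with at most 0.84 TPM in the other 8. Iglv2 was highest in control 9, at 19.8 TPM. None of the 3 passed the test (adjusted p = 0.409 for Iglv1, 0.569 for Iglv2 and 1 for Iglv3).

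By family, Ighv1, the largest family with 53 members, took a mean of 77.0% of heavy V TPM in controls and 52.4% under miR-130a, and Ighv3 took 7.44% and 30.5%. Single libraries ran from 28.8% to 87.9% for Ighv1 and from 1.69% to 65.8% for Ighv3. Among kappa families, Igkv4, with 26 members, took 21% and 11.8%, Igkv6 17.4% and 30.5%, and Igkv10 19.1% and 2.23%. The Igkv10 share rested on control library 3, where it was 78.1%. Single libraries ran from 1.63% to 66.0% for Igkv4, highest in control library 7, and the higher control mean of Igkv4 rested on that library. For Igkv6 they ran from 2.84% to 64.8%, highest in miR-130a library 13. These are means of shares with no test.

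V segments resemble each other closely, which bears on how reads were assigned. Among 216 V segments compared within their locus, 104 (48.1%) had a relative at least 95% identical over the aligned transcript, and among the 167 detected it was 92 (55.1%). Igkv10-94 and Igkv10-96 were 95.4% identical, Ighv1-34 and Ighv1-18 96.0%, and Igkv6-23 and Igkv6-15 94.5%. The relatives of these pairs were high together in at least 1 library. That was control 3 for Igkv10-94 and Igkv10-96, and control 7 for Ighv1-34 and Ighv1-18 (1226 and 687 TPM). Igkv6-23 and Igkv6-15 were high together in several libraries. Among these were control 7 (234 and 199 TPM), control 9 (359 and 204 TPM) and miR-130a library 13 (123 and 127 TPM). Other close relatives differed. In miR-130a library 15, Igkv5-43 and Igkv5-45 (98.4% identical) stood at 125 and 1.63 TPM. Igkv17-121 and Igkv17-127 (97.5%) stood there at 0 and 114 TPM. Whether relatives rise together in general was not tested. How reads shared by such relatives were divided is not given in the sources used here, and rearranged V regions of mature B cells also carry somatic mutations, so the level of a single V segment is less certain than the sum of its family or locus.

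The remaining members gave no value to compare. All 19 D and 14 J segments, 54 V segments, Ighe and Iglc4 were at 0 in every library, 89 members in all. The 7 predicted genes without a locus name are among them, under the types that their biotypes give. D transcripts are 10 to 29 bases and J transcripts 38 to 54 bases long in the annotation, beside a median of 358 bases for V and 1460 bases for constant segments. A further 34 members were above 0 but had a mean under 1 TPM. At the edge of the filter, Ighv6-6 with a mean of 1.02 TPM was tested and Igkv3-9 with 0.853 TPM was not.

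Genes that mark antibody-producing cells gave a mixed picture. The 17 calls given below for B cell, plasma cell, precursor, Fc receptor and survival lists all had the lower direction in miR-130a libraries. The counts of each list stand beside the 11.3% of all genes called lower. Control libraries 7 and 9 also held the 2 highest sums of the B cell, plasma cell, Fc receptor and survival lists. The same held for the T cell and border myeloid lists given further on. Of the plasma cell list, 2 of 10 genes tested were called lower and 0 higher. Jchain, which links IgM and IgA into polymers, stood at 61.5, 7.24, 13.8, 167 and 447 TPM in controls 3, 4, 5, 7 and 9, and at 13.4, 6.16, 11.1, 29.5 and 33.0 TPM in miR-130a libraries 13, 14, 15, 17 and 18. The order of the libraries by Jchain was that of the summed immunoglobulin level except that miR-130a libraries 17 and 18 changed places. Jchain did not pass (log2 difference -1.76, adjusted p = 0.257, and -0.24, adjusted p = 0.846, without control libraries 7 and 9), and neither did Mzb1, a chaperone cofactor of antibody folding (-1.20, adjusted p = 0.211). Slamf7, a surface receptor of plasma cells and of other immune cells, fell by 1.92 (adjusted p = 0.0135), from 1.94 to 13.9 TPM in controls to 0.24 to 1.02 TPM in miR-130a libraries. Txndc5, a disulfide isomerase of the secretory pathway that many cell types make, fell by 0.33 (adjusted p = 0.0451) and lost its call in 8 of 10 fits that left out 1 library, all but those without control 9 and miR-130a 13. Tnfrsf17, the BCMA receptor of plasma cells, was at 0.32 to 2.01 TPM in controls and 0.51 to 0.96 TPM under miR-130a and fell under the filter. Fkbp11, a folding enzyme of secretory cells, had the opposite sign, at 1.15 ± 0.954 TPM in controls and 2.36 ± 0.814 TPM under miR-130a (SD, n = 5 each; log2 difference 0.70, limma adjusted p = 0.107). The summed list ran from 145 to 628 TPM in controls and from 116 to 160 TPM under miR-130a. Most of the miR-130a sums came from Xbp1 and Txndc5, which averaged 66.45 and 36.5 TPM there. Most of the sum in control library 9 came from Jchain.

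Of the B cell list, 3 of 7 genes tested were called lower. Cd22, an inhibitory receptor of B cells that microglia also express, stood at 7.03, 3.97, 5.88, 9.99 and 9.11 TPM in the controls and at 0.43, 0.37, 0.44, 0.57 and 1.09 TPM in the miR-130a libraries, with no overlap. It fell by 2.34 (SE 0.22, adjusted p = 0.000503), and by 2.06 (adjusted p = 0.00251) without control libraries 7 and 9. Tnfrsf13b, the TACI receptor for B cell survival factors, fell by 1.16 (adjusted p = 0.0181), and Cd79b, a signalling chain of the B cell receptor, fell by 1.10 (adjusted p = 0.0296; 0.106 without control libraries 7 and 9). The call of Cd79b was also lost without control 3, control 7 or miR-130a 13, 14 or 15 alone, with an adjusted p of 0.0622 to 0.0763. Its partner Cd79a did not pass (adjusted p = 0.0975). The defining B cell genes Ms4a1 and Pax5 were at or near 0, with at most 0.62 and 0.28 TPM in any library. The summed list ran from 16.1 to 48.7 TPM in controls and from 6.11 to 13.9 TPM under miR-130a. Cd22 gave 3.97 TPM of the lowest control sum, in library 4, and 0.57 TPM of the highest miR-130a sum, in library 17. Without Cd22 those libraries change order, so the ranges of the sum then overlap.

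The genes of V(D)J recombination and of B cell precursors gave no call, 0 of 3 tested (Polm, Erg and Ung, adjusted p = 0.166, 0.256 and 0.367). Rag1 was at 0.03 to 0.12 TPM in controls and at 0.13 to 0.22 TPM under miR-130a, under the filter and so not tested. Rag2 was above 0 in miR-130a library 15 only, at 0.05 TPM, and Dntt stayed at or under 0.05 TPM. The surrogate light chain genes Igll1 and Vpreb1b were listed at 0 in all 10 libraries. Vpreb1a, of the same kind, was above 0 in 5 libraries, at up to 0.18 TPM in controls and 0.83 TPM under miR-130a. It also fell under the filter.

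The receptors that bind antibody fell in miR-130a libraries. Of the Fc receptor and antibody transport list, 7 of 7 genes tested were called lower and for each of the 7 the ranges of the groups were separate, with a median difference of -1.48 beside -0.09 for all genes. Fcgr1, the high-affinity IgG receptor of myeloid cells, stood at 16.4, 20.1, 12.8, 27.2 and 31.2 TPM in controls 3, 4, 5, 7 and 9, and at 3.44, 4.03, 7.07, 3.56 and 6.26 TPM in miR-130a libraries 13, 14, 15, 17 and 18. It fell by 1.92 (SE 0.248, adjusted p = 0.00118). Fcgr4, an activating receptor that binds IgG2 subclasses, fell by 2.57 (SE 0.38, adjusted p = 0.00206), and Fcgrt, the neonatal Fc receptor that recycles IgG, fell by 0.77 (SE 0.114, adjusted p = 0.00206). Without control libraries 7 and 9 these 3 genes still passed (adjusted p = 0.0047, 0.00615 and 0.00948). Fcgr2b, Fcgr3, the shared signalling chain Fcer1g and the cytosolic antibody receptor Trim21 were the other calls. Pigr, which carries IgA across epithelia, stayed at or under 0.07 TPM, and Fcamr was listed at 0. The list summed to 216 to 532 TPM in controls and 88.5 to 134 TPM under miR-130a.

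Factors that recruit or sustain antibody-secreting cells were called lower for 5 of 12 genes tested. Cxcl10, a chemokine for cells bearing Cxcr3, ran from 29.2 to 109 TPM in controls and from 3.87 to 25.3 TPM under miR-130a and fell by 2.50 (adjusted p = 0.00554). Icosl, a costimulatory ligand for T cells that help B cells, fell by 1.06 (adjusted p = 0.0118), and Ccl19, a lymphoid chemokine, by 1.77 (adjusted p = 0.0207; 0.0781 without control libraries 7 and 9). Ccl19 also lost its call without control 7 or miR-130a 13 or 14 alone (adjusted p of 0.0553 to 0.0557). Cxcl12, which holds plasma cells in their niches, fell by 0.35 (adjusted p = 0.0347), and Cxcr3 by 1.21 (adjusted p = 0.0437). Tnfsf13b, the survival factor BAFF, did not pass (adjusted p = 0.095), nor did Tnfsf13, which encodes APRIL (adjusted p = 0.59).

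Genes of other cells that a punch can hold were called too. Of the T cell list 7 of 12 genes tested were called lower. Its summed level was 67.2 to 206 TPM in controls and 54.5 to 85.1 TPM under miR-130a. Most of the T cell sum under miR-130a was Trbc2, which averaged 58.44 TPM in controls and 56.86 TPM under miR-130a. Trbc2 did not pass (log2 difference -0.02, adjusted p = 0.949). Of the border myeloid list 4 of 6 were called lower, with 34.2 to 199.95 TPM in controls and 7.05 to 39.7 TPM under miR-130a. The calls were Itgax, Ly6c2, Plac8 and Ms4a7, and Ly6c2 was the largest part of the control sum (mean 52.2 TPM). Mrc1 and S100a9 did not pass (limma adjusted p = 0.101 and 0.814). Under the filter, Cd163, Lyve1 and F13a1 averaged 0.396, 0.326 and 0.696 TPM in controls. Under miR-130a they averaged 0.394, 0.294 and 0.588 TPM. Ccr2, also under the filter, averaged 1.44 and 0.224 TPM. Of the meningeal fibroblast list 5 of 10 were called lower, among them the collagens Col1a1 (adjusted p = 0.0159) and Col3a1 (adjusted p = 0.014), and its summed level was 1137 to 2978 TPM in controls and 379.8 to 2015 TPM under miR-130a. Most of that sum was Ptgds, which averaged 2269 TPM in controls and 1194 TPM under miR-130a and did not pass (adjusted p = 0.122). Some calls rested on control libraries 7 and 9. Without them, of the 3 genes of lowest p per list, Cd2, Cd4, Plac8 and Dcn lost their calls (limma adjusted p = 0.0554, 0.0569, 0.0657 and 0.075). Cd8b1, Itgax, Ly6c2, Col1a1 and Col3a1 kept theirs (0.0282, 0.00265, 0.0304, 0.0485 and 0.0198). No red blood cell gene (0 of 5 tested) or choroid plexus gene (0 of 2 tested) was called, and Ttr, the defining choroid plexus transcript, averaged 0.568 TPM in controls and 0.252 TPM under miR-130a. The part of meningeal tissue or of blood in the immunoglobulin levels was not tested.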

How the data were processed

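Bulk poly(A) RNA was measured in 10 libraries, 5 per group, grouped by their titles. The authors deposited TPM per gene; fastp, HISAT2, RSEM and DESeq2 and the build GRCm39 are named, without roles or versions, per the submitters' processing notes. TPM keeps no depth, so no counting intervals were computed. The authors' group means were not used. Values were analysed as log2(TPM + 1), which understates changes of low genes, for genes with a mean of at least 1 TPM. Groups were compared with limma 3.58.1 (lmFit, eBayes with trend) in R 4.3.3, 2-sided, without covariates, with Benjamini-Hochberg adjustment over all 15680 genes and a threshold of 0.05; the script was tested on simulated data. Sums, shares and detection counts carry no test. Sums, sequences and figures used Python 3.11.15, pandas 2.3.3 and Biopython 1.88. Transcripts came from GENCODE M21 (267 of 267 members matched by identifier); since its build differs from GRCm39, no coordinates are given. Genes were named from every detected constant segment, the highest V segments per locus (6 heavy, 6 kappa, 3 lambda), every called member, each library's leading V segments, and the 3 genes of lowest p and the defining markers of each list; not every gene so selected is described, and other names were picked after their values were seen. Members and lists were chosen with earlier results of these data known. Alternatives were other pseudocounts, filters, scalings, variance moderation and left-out libraries.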

Additional observations from a re-analysis of the deposited data

Results flagged for a closer look

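In 11 of 96 groups of 5 libraries (11.5%), the highest library lay far from the others: its gap to the next one, divided by the range of the group, both on the log2(TPM + 1) scale for levels, was above Dixon's critical value of 0.71. Chance gives about 1 in 20 for independent, normally distributed groups, which these are not: the groups share libraries, and 2 of the 11 have 4 libraries at 0. The values below are in TPM. Of the 11, 6 were in miR-130a library 17, 3 in control library 9 and 2 in miR-130a library 18. In miR-130a library 17 the lambda locus summed to 231 TPM and its V segments to 165 TPM, with Iglv1 at 36.3 TPM and Iglv3 at 129 TPM. The kappa segments Igkv12-44 (196 TPM) and Igkv3-2 (107 TPM) stood out in the same library. In control library 9, Ighv1-9 was at 416 TPM, Iglv2 at 19.8 TPM and Iglv3 at 149 TPM. In miR-130a library 18, Ighv1-18 was at 7.45 TPM and Iglv2 at 2.09 TPM, while both were at 0 in the other 4 miR-130a libraries.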

How the results depend on the processing

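The 3 segments called lower became 0 with no filter on low values (178 members tested) or with robust variance moderation, and 1 with median-ratio scaling, with quantile normalization or without control libraries 7 and 9. Leaving out each library in turn gave 0 to 8. The 1 constant segment called lower became 0 with no filter or with robust moderation, and 0 to 2 with libraries left out. The 17 list genes called lower became 11 with no filter and 12 to 18 with libraries left out. No segment was called higher under any alternative run. With no filter, p-values were adjusted over 36601 genes; the cause was not tested for the other changes. Calls of all genes depend on scaling: 1767 lower and 343 higher as deposited became 1192 and 862 with median-ratio scaling and 1046 and 1071 with quantile normalization, where the median difference of all genes was 0.01 and 0.05. The members' median was then -1.23 and -1.20, with 130 and 129 of 144 negative. With libraries left out, the difference of log2 summed TPM ran from -2.61 to -1.31 for all segments, from -2.78 to -1.53 for heavy, from -2.56 to -1.24 for kappa and from -1.90 to 0.17 for lambda. The difference in segments above 0 ran from -43.9 to -19.1, that of the leading heavy share from -10.3 to 7.32 percentage points and that of the leading kappa share from -13.7 to -3.08. Without control libraries 7 and 9 the log2 summed TPM differed by -0.56 for all, -0.80 for heavy, -0.46 for kappa and 0.66 for lambda segments. No paired analysis was possible because the groups share no replicate number. Depth is unknown, so a value of 0 sets no upper limit.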
